A study of Homo sapiens
Mus musculus with 16 samples.

Results

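Host tissue of ScaBER xenografts given both alpelisib and nintedanib was compared with host tissue of xenografts given alpelisib alone. The comparison takes in 8 of the 16 libraries of the study, 4 from each group, read through the table of transcripts mapped to the mouse genome. ScaBER is a human bladder cancer cell line, and the tumours grew in athymic nude mice (Hsd:Athymic Nude-Foxn1nu) that were treated for 14 days. The alpelisib group received 25 mg/kg alpelisib. In the combination group the same dose of alpelisib was joined by 40 mg/kg nintedanib, so alpelisib is common to both groups and nintedanib is what differs. The other 8 libraries, from mice given 40 mg/kg nintedanib or the methylcellulose and Tween80 vehicle, entered the model fit and served as a second setting in which nintedanib was added. All tumours came from a single cell line, athymic mice lack most mature T cells, and the labels state neither the site of implantation nor whether any animal gave more than 1 library. The p-values therefore measure the spread between these samples, which may be technical. Of 23337 mouse genes listed, the 17484 whose value reached 1 in 4 or more of the 16 libraries were tested. Values are the deposited normalized expression values, and differences are combination minus alpelisib on the log2(value + 1) scale, which understates differences of low genes.

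In a xenograft the malignant cells are human and the blood vessels, fibroblasts and immune cells that feed and surround them are of the host, so mouse transcripts report on the stroma. Nintedanib inhibits the receptor kinases for VEGF, which drives endothelial growth and survival, for PDGF, which recruits pericytes, and for FGF. Alpelisib inhibits the alpha isoform of PI3K, a lipid kinase that acts below such receptors in tumour cells and in endothelium. In bulk tissue, fewer cells of a type and less RNA per cell cannot be told apart.

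The 8 libraries held between 4106878 (combination 3) and 6850491 (combination 2) mouse reads, and endothelial (Pecam1, Cdh5), pericyte (Pdgfrb), fibroblast (Pdgfra, Dcn), macrophage (Csf1r, C1qa) and contractile (Acta2) markers had reads in all 8. The mouse share of the reads mapped to either species was 26.0% ± 3.65 (SD, n = 4) in the alpelisib group and 27.4% ± 5.03 (SD, n = 4) in the combination group, a difference of 1.39 percentage points (2-sided exact permutation test, p = 0.6) that was -0.364 points without alpelisib 1. The ribosomal RNA entry Rn45s was the top gene in each of these libraries but combination 2. It took from 7.82% (alpelisib 4) to 14.1% (alpelisib 2) of mouse reads. In combination 2 the top gene was Col1a1, at 2.84%, so Rn45s took less than that there. Shares of mouse reads in this report include Rn45s, and its effect on them was not tested. Some libraries carried transcripts of neighbouring host tissue. The 28 skeletal muscle genes took 3.44% of mouse reads in combination 1 and at most 0.46% in the other 7 libraries. Adipocyte genes took 0.553% in alpelisib 4 and 0.266% in alpelisib 2, with at most 0.139% in the rest. Skin and hair genes took 0.335% in alpelisib 1 and at most 0.1% elsewhere.

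**Figure D1:**
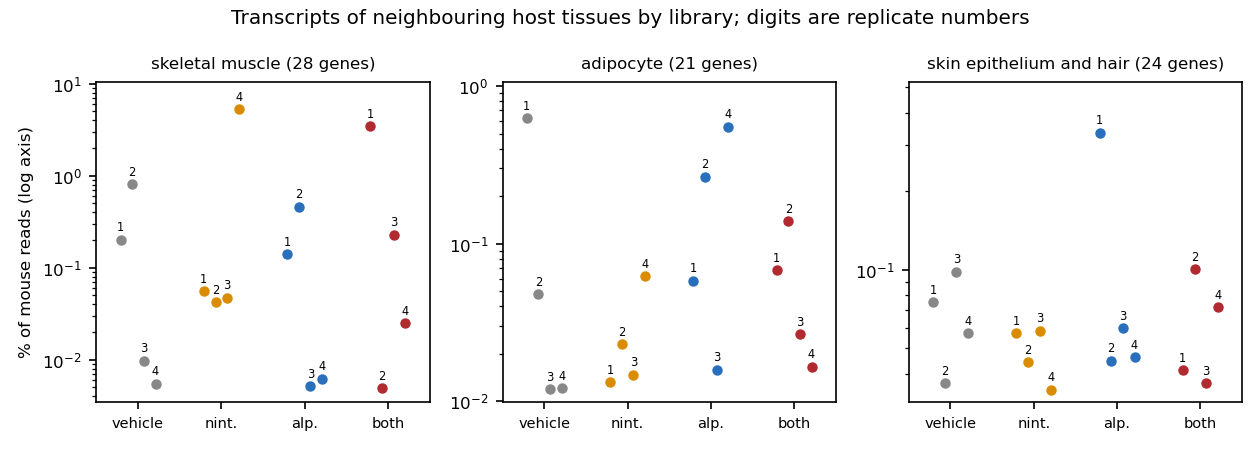
Share of mouse reads from skeletal muscle, adipocyte and skin or hair genes (vertical log axis, percent) in each of the 16 libraries, grouped as vehicle, nintedanib (nint.), alpelisib (alp.) and both drugs, with replicate numbers at the points. Combination 1 and nintedanib 4 stand apart for muscle, at 3.44% and 5.33%, alpelisib 4 is the highest of its group for adipocyte genes and alpelisib 1 for skin genes.

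No single host gene passed an adjusted p of 0.05 between the combination and alpelisib (limma, 0 of 17484 genes, smallest adjusted p = 0.183). At an unadjusted p under 0.05 there were 1007 genes, 5.76% of those tested, 485 higher (2.77%) and 522 lower (2.99%) with the combination. The values of all 4 combination libraries lay above those of all 4 alpelisib libraries for 240 genes (1.37%) and below them for 260 (1.49%). The difference was above 0 for 51.4% and below 0 for 48.5% of genes. Run on the recovered whole reads, edgeR's quasi-likelihood test gave 0 genes (1115 unadjusted) and limma-voom gave 0 (1045 unadjusted). DESeq2 called 26, of which 7 were higher and 19 lower, all 26 with an unadjusted limma p under 0.05 and 21 with groups that did not overlap. The median SE of a gene was 0.41 on the log2 scale. The gene counts and gene list values that follow describe these libraries, and no gene in them passed the adjusted threshold by limma on the 16 libraries.

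Among genes of at least median expression with separated groups, 10 genes were taken in each direction by smallest p, and those on the lower side are given first. Trp53i11, a p53-inducible gene counted among tip cell genes, stood at 581, 309.9, 952 and 513 in alpelisib libraries 1 to 4 and at 185, 229, 102 and 112 in combination libraries 1 to 4, a difference of -1.87 (SE 0.34, adjusted p = 0.183). Notch4, a Notch receptor of endothelial cells, gave 83.1, 129, 171 and 162 with alpelisib, a mean of 136 ± 39.7 (SD, n = 4), against 52.5, 61.4, 42.4 and 41.6 with the combination, a mean of 49.5 ± 9.37 (SD, n = 4). The difference was -1.41 (SE 0.26, adjusted p = 0.183). Here and below, the first 4 values are those of alpelisib 1 to 4 and the 4 after "against" those of combination 1 to 4. Separated groups were a condition of the choice for all the genes taken in this way. The imprinted gene Mest, expressed in growing mesenchyme, stood at 269, 199.6, 184 and 218 against 125, 81.0, 65.4 and 81.1, -1.32 (SE 0.25, adjusted p = 0.204). Cdkn2a, which encodes inhibitors of the cell cycle and of MDM2, stood at 434, 358, 238 and 282 against 164, 182, 82.6 and 94.3, -1.37 (SE 0.28, adjusted p = 0.245). The remaining 6 were the CDC42 effector Cdc42ep1 (-1.18, SE 0.24), the secreted EMI domain protein gene Emid1 (-1.77, SE 0.39), the endothelial junction gene Esam (-0.95, SE 0.21), the glycosyltransferase gene B3gnt8 (-0.82, SE 0.19), the peptide hormone gene Enho (-1.31, SE 0.30) and the heparan sulfate proteoglycan gene Sdc1 (-0.79, SE 0.18). DESeq2 called all 10 of these genes. The mean value of the human gene of the same symbol over the 16 libraries was set against that of the mouse gene. This ratio was 21 for Cdc42ep1, 16 for Cdkn2a, 7.9 for Sdc1 and 1.6 for Mest. It was 0.19 or less for Enho, Notch4, B3gnt8, Emid1 and Esam, and Trp53i11 had no match. Shared reads between the species were not tested for these genes.

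On the higher side the first 2 were Id2 and Cilp. Id2, an inhibitor of basic helix-loop-helix transcription factors, stood at 297, 166, 264 and 254 with alpelisib against 447, 485, 688 and 624 with the combination, 1.20 (SE 0.22, adjusted p = 0.183). As the choice required, the lowest combination library, at 447, exceeded the highest alpelisib library, at 297. Cilp, a matrix protein gene first known from cartilage, stood at 364, 416, 651 and 320.4 against 1723, 1181, 759 and 926, 1.37 (SE 0.30, adjusted p = 0.296). The others were Ndufs4 of respiratory complex I (0.83, SE 0.19), the annexin partner S100a10 (0.80, SE 0.19), the noncoding RNA Dnm3os (1.74, SE 0.44), the mitochondrial ribosomal gene Mrpl9 (0.86, SE 0.23), Afmid of the kynurenine pathway (0.999, SE 0.27), the enolase gene Eno2 (0.94, SE 0.26), the peroxiredoxin gene Prdx4 (0.63, SE 0.20) and Amica1, a leukocyte adhesion gene (1.66, SE 0.51). Dnm3os lies antisense within another gene, and reads of the 2 can be told apart only where counting used strand, which the sources used here do not state. Its value in alpelisib 3 was 25.1 against 125 to 136 in the rest of its group, and the difference was 1.17 with that library left out. DESeq2 called 4 of these 10, namely Id2, Cilp, Ndufs4 and S100a10. The ratio of the human to the mouse mean was 34 for S100a10, 13 for Eno2, 11 for Mrpl9, 6.5 for Afmid, 3.5 for Ndufs4 and 2.0 for Prdx4. It was 0.35 or less for Id2, Dnm3os, Amica1 and Cilp. Eno2 followed its human counterpart across libraries with r of 0.77, the rest with at most 0.66 (Id2). Shared reads were not tested for these genes either.

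**Figure D2:**
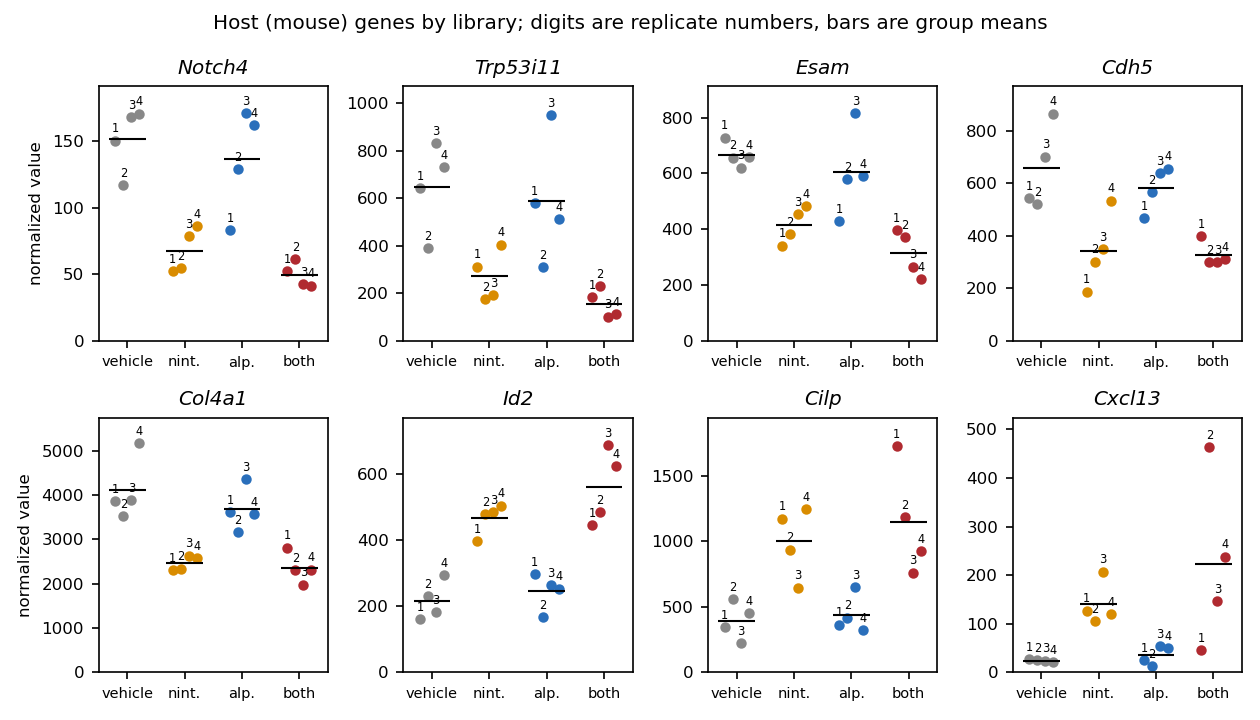
Normalized values (vertical axes, linear from 0) of 8 mouse genes in each library of the 4 groups, with replicate numbers at the points and group means as bars. For Notch4, Trp53i11, Esam, Cdh5 and Col4a1 all combination (both) values lie below all alpelisib (alp.) values, for Id2 and Cilp all lie above, and for Cxcl13 combination 1 lies within the alpelisib range.

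Endothelial genes had differences below 0 almost throughout. Of 32 pan-endothelial genes, 30 had a difference below 0, 11 of them with an unadjusted p under 0.05 (against 2.99% of all genes) and 7 with separated groups (against 1.49%), and the median difference was -0.53 against 0.01 over all genes. Cdh5, the adhesion molecule of endothelial junctions, stood at 467, 566, 639 and 656 with alpelisib against 399, 299.7, 300.5 and 312 with the combination, -0.82 (SE 0.25). Esam stood at 429.7, 580.2, 816 and 591 against 396, 372, 266 and 221. For both genes the 2 groups did not overlap, and combination 1, the library rich in muscle transcripts, was the highest of its group. Gpr116, an adhesion receptor of endothelium, stood at 226, 277, 326 and 338 against 194, 169.8, 118 and 195, -0.79 (SE 0.24). Of further members named after their values were seen, the secreted vessel factor Egfl7 gave -0.93 (SE 0.28), the endothelial sialomucin Emcn -0.65 (SE 0.22) and the orphan receptor Tie1 -0.66 (SE 0.33). The platelet and endothelial adhesion gene Pecam1 stood at 677, 469, 692 and 845 against 566, 777, 307 and 422, -0.42 (SE 0.27), with overlapping groups, and the difference was -0.20 without combination 3.

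The endothelial list score, the mean log2 value of the members set to 0 at the alpelisib mean, was -0.14, -0.17, 0.09 and 0.22 in alpelisib 1 to 4 and -0.08, -0.57, -0.75 and -0.82 in combination 1 to 4. Combination 1 lay among the alpelisib libraries, and so the groups overlapped by that library. Nintedanib 4, the other muscle-rich library, scored 0.13 where nintedanib 1 to 3 scored -0.77 to -0.48. The contribution of muscle to these scores was not tested beyond the fits that follow. Summed reads of the list were 0.193% of mouse reads in combination 1 and 0.126 to 0.179% in the other 3 combination libraries, against 0.186 to 0.289% with alpelisib. Without combination 1 and nintedanib 4, the 2 libraries rich in muscle, the median was -0.73 with 17 members at an unadjusted p under 0.05. With muscle, adipocyte and skin scores as covariates it was -0.71 with 15. With values scaled to the summed reads of both species the median was -0.45 and 4 members had such a p.

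**Figure D3:**
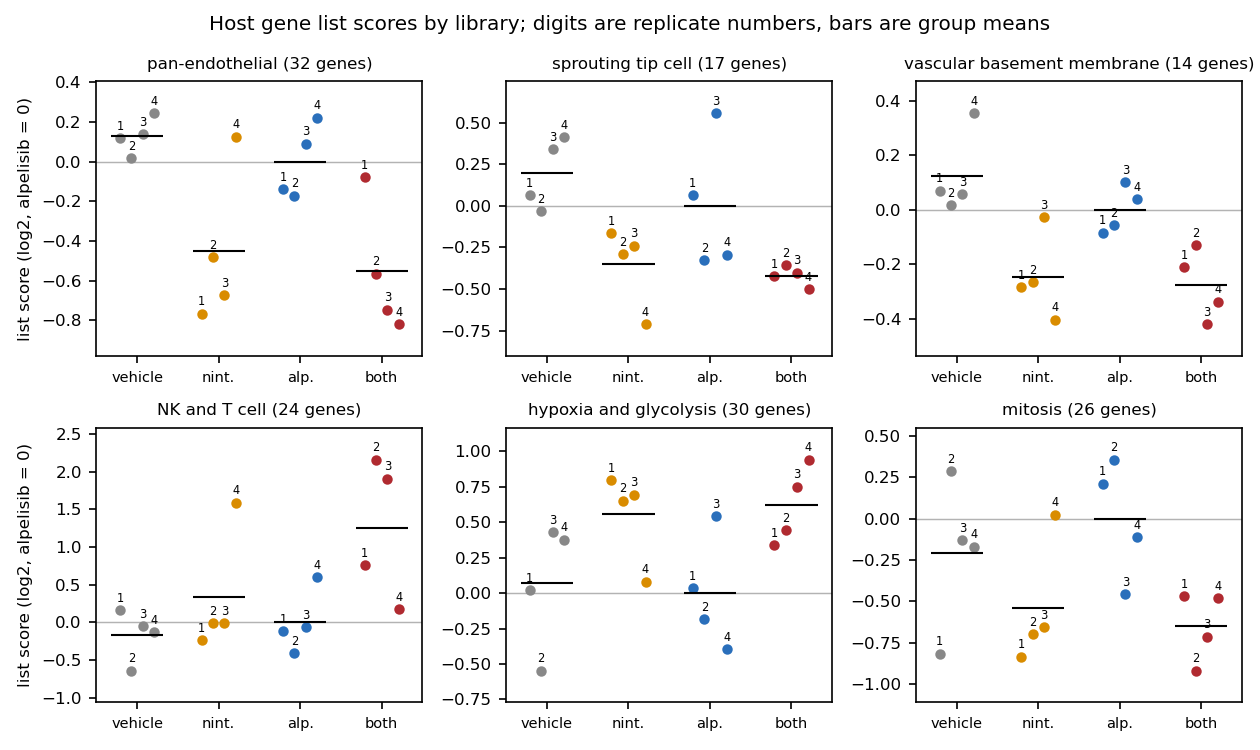
Scores of 6 host gene lists (vertical axes, mean log2 value of the members, set to 0 at the alpelisib mean) in each library of the 4 groups, with replicate numbers at the points and group means as bars. The tip cell, basement membrane and mitosis scores of each combination library lie below those of each alpelisib library, whereas the endothelial, NK and T cell and hypoxia scores overlap between these groups.

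Genes of sprouting, Notch signalling and the vessel wall were measured beside them. Tip cells lead new sprouts, and 14 of 17 tip cell genes had a difference below 0 (against 48.5% of all genes), with a median of -0.49. At an unadjusted p under 0.05 6 were lower (against 2.99%) and 1 higher (against 2.77%). Scores were 0.06, -0.33, 0.56 and -0.29 with alpelisib and -0.42, -0.35, -0.40 and -0.50 with the combination, with alpelisib 2 just above combination 2. Dll4, the Notch ligand of tip cells, stood at 75.6, 111, 151 and 86.2 with alpelisib against 63.6, 45.1, 58.5 and 41.6 with the combination, -0.98 (SE 0.30). Mcam, an adhesion molecule of endothelium and pericytes, stood at 395, 357, 481 and 407 against 339, 238, 213 and 278, -0.63 (SE 0.17). Both genes were lower in every combination library than in any alpelisib library. Other tip cell genes, named after their values were seen, were the secreted proteoglycan gene Esm1 (-1.19, SE 0.47), the TIE2 ligand Angpt2 (-0.61, SE 0.33) and the peptide ligand Apln (-0.29, SE 0.25), each with overlapping groups. Alpelisib 3 had the highest value of the 8 for all 3, and without it they gave -0.63, -0.38 and -0.056. Of 14 vascular Notch genes 10 had a difference below 0 (against 48.5% of all genes; median -0.36), and 3 of them, Notch4, Dll4 and the feedback regulator Nrarp (-0.85, SE 0.25), had an unadjusted p under 0.05 (against 2.99%). The median of the Notch list was -0.18 by edgeR and, with 1 library left out at a time, ran from -0.46 without combination 4 to -0.23 without combination 3. Ranges of list medians given below are of the same kind.

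The basement membrane list, the sheet of collagen IV, laminin and heparan sulfate proteoglycans around vessels, had 11 of 14 members below 0 (against 48.5% of all genes) and 6 lower at an unadjusted p under 0.05 (against 2.99%). Its median of -0.18 ran from -0.34 without combination 4 to -0.10 without combination 3. With values scaled to the summed reads of both species 3 had such a p, by edgeR 4. Col4a1, a collagen IV chain, stood at 3622, 3161, 4351 and 3568 with alpelisib against 2814, 2310, 1979 and 2319 with the combination, -0.64 (SE 0.18). Its partner chain Col4a2 stood at 1928, 1774, 2781 and 2400 against 1625, 1616, 972 and 883, -0.83 (SE 0.24), and Col18a1, the precursor of endostatin, at 674, 724, 755 and 761 against 589, 453, 328 and 392, -0.76 (SE 0.21). All 3 had separated groups, as had the list score, at -0.08, -0.06, 0.10 and 0.04 with alpelisib and -0.21, -0.13, -0.42 and -0.34 with the combination.

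Genes of the mural cells that wrap vessels had differences of both signs. The pericyte list had a median of -0.21 with 11 of 19 members below 0 (against 48.5% of all genes), and 0.015 without combination 2. The smooth muscle list had a median of -0.23 with 9 of 15 below 0 (against 48.5%), and -0.46 without combination 1, whose score of 1.12 was the highest of the 8, and -0.091 without combination 3. Heyl, a Notch target of pericytes, gave -0.52 (SE 0.28), and Steap4, a metalloreductase, gave 1.10 (SE 0.44). The contractile genes Myh11 and Actg2 gave -0.62 (SE 0.31) and -0.68 (SE 0.36). The lymphatic list of 8 genes had a median of -0.26, which ran from -0.97 without alpelisib 3 to 0.0088 without alpelisib 1.

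The transcripts of the receptors that nintedanib inhibits were measured too, and none passed the threshold. The VEGF receptor Kdr stood at 420.3, 308, 404 and 410.4 with alpelisib against 335, 342, 364 and 347 with the combination, -0.14 (SE 0.20). Flt1, the other main VEGF receptor of blood vessels, stood at 146, 122, 193 and 247 against 226, 139.7, 165 and 307, 0.23 (SE 0.27), and its difference was 0.023 without combination 4. The groups overlapped for both receptors, for Kdr through alpelisib 2 alone, at 308. Of the 32 pan-endothelial genes 7 had separated groups, among them Cdh5 and Esam, which were taken by smallest p. Flt4, the VEGF receptor of lymphatics, stood at 268, 239, 92.7 and 179 against 160.5, 38.5, 112 and 32.4, -1.37 (SE 0.51), with overlapping groups. The PDGF receptor genes Pdgfrb, of pericytes, and Pdgfra, of fibroblasts, gave -0.21 (SE 0.20) and 0.43 (SE 0.28). Among FGF receptors Fgfr1 gave -0.06 (SE 0.23), Fgfr2 -0.63 (SE 0.40) and Fgfr3, which was low at 0 to 35.9, -1.29 (SE 0.77). Pik3ca, the target of alpelisib, gave -0.07 (SE 0.27).

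Ligands and coreceptors of the VEGF family were measured beside the receptors. Host Vegfa stood at 447, 232, 463 and 172 with alpelisib against 315, 499, 699.5 and 994 with the combination, 0.93 (SE 0.38), and Pgf, which binds FLT1, at 221, 142, 495 and 105 against 197, 475, 498 and 636, 1.04 (SE 0.54). For both genes alpelisib 1 and 3 reached values of the combination group. Across the 16 libraries host Vegfa and Pgf followed the human gene of the same symbol, with Pearson r of 0.86 and 0.88, and shared reads between the species were not tested for them. The coreceptors Nrp1 and Nrp2 gave 0.12 (SE 0.24) and 0.13 (SE 0.17), and the ligands Vegfb, Vegfc and Figf (VEGF-D) gave -0.08 (SE 0.27), -0.61 (SE 0.54) and 0.47 (SE 0.48). These 5 were named after their values were seen, to complete the list of 10, whose median of 0.13 ran from 0.028 without combination 4 to 0.20 without combination 3.

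**Figure D4:**
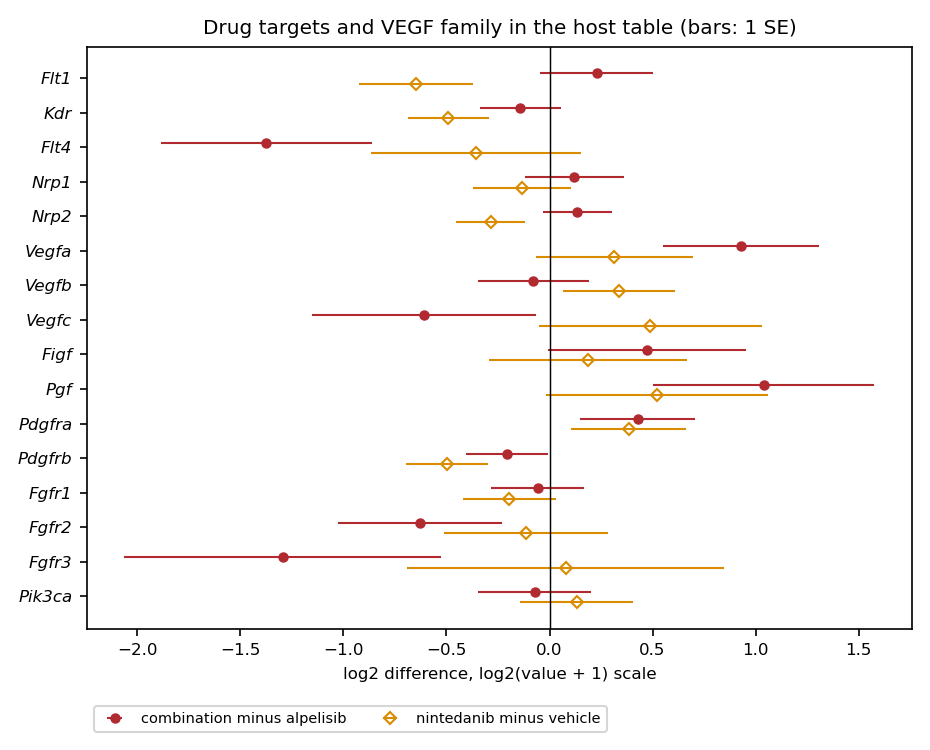
Differences of drug target and VEGF family genes in the mouse table (horizontal axis, log2 scale, bars 1 SE), for combination minus alpelisib (filled) and nintedanib minus vehicle (open). Flt1 lies at 0.23 in the first and -0.65 in the second, and Kdr at -0.14 and -0.49. No gene shown passed an adjusted p of 0.05.

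Hypoxia and glycolysis genes, targets of the transcription factor HIF among them, all had a difference above 0. This held for 30 of 30 members (against 51.4% of all genes), 10 with an unadjusted p under 0.05 (against 2.77%), with a median of 0.62. Ldha, which makes lactate, stood at 1903, 2055, 2669 and 1770 with alpelisib against 3904, 2797, 3152 and 3252 with the combination, 0.65 (SE 0.21), and the groups were separated. Pgk1, a glycolytic kinase, stood at 854, 729.9, 1270 and 685 against 1178, 1254, 1678 and 1562, 0.71 (SE 0.22), and the vasoactive peptide gene Adm at 115, 83.2, 269 and 115 against 200.4, 334, 276 and 424, 1.17 (SE 0.40). In both genes alpelisib 3 was the highest of its group and reached combination values. The mitophagy gene Bnip3 (0.89, SE 0.34) and the oxygen sensor Egln3 (0.92, SE 0.42) were named after their values were seen. List scores were 0.04, -0.18, 0.54 and -0.40 with alpelisib and 0.34, 0.44, 0.75 and 0.94 with the combination, and summed reads took 0.352 to 0.571% of mouse reads with alpelisib and 0.619 to 0.791% with the combination, without overlap.

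Of 29 members with a human gene of the same symbol, 11 followed it across the 16 libraries with r of at least 0.8, against 3.05% of all genes matched. The median r of the 29 was 0.78, so a cut at 0.8 leaves in members that also follow the human gene. Without these 11, 19 of 19 were above 0 with a median of 0.60, and 5 had an unadjusted p under 0.05. Over all 30 members, the number with such a p ranged from 6 without alpelisib 2 or combination 3 to 17 without alpelisib 3, and the median from 0.51 without alpelisib 4 to 0.78 without alpelisib 3. Without the 2 muscle-rich libraries the median was 0.69 and the number 16. With values scaled to the summed reads of both species they were 0.71 and 17.

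Mitotic genes of the host had the opposite sign. Of 26 genes 25 had a difference below 0 (against 48.5% of all genes), 10 with an unadjusted p under 0.05 (against 2.99%) and 7 with separated groups (against 1.49%), and the median was -0.62. Plk1, a mitotic kinase, stood at 149, 270.3, 149 and 136 with alpelisib against 70.2, 87.5, 40.1 and 99.3 with the combination, -1.25 (SE 0.34). Ube2c, which tags mitotic proteins for destruction, stood at 229, 339, 169 and 216 against 145, 97.3, 99.8 and 125, -0.997 (SE 0.27), and the proliferation marker Mki67 at 262, 318, 159 and 255 against 141, 112, 116 and 158, -0.88 (SE 0.29). Alpelisib 2 was the highest library for all 3, yet every combination library was below every alpelisib library. List scores were 0.21, 0.36, -0.46 and -0.11 with alpelisib and -0.47, -0.92, -0.71 and -0.48 with the combination, so the score of alpelisib 3 came close to those of combination 1 and 4. The count at an unadjusted p under 0.05 was 6 without alpelisib 2, 5 when scaled to the summed reads of both species and 15 with tissue scores as covariates. Of 25 mitotic genes with a human gene of the same symbol, 1 followed it across the 16 libraries with r of at least 0.8. Over all genes matched that share was 3.05%. The median r of the 25 was 0.46, and shared reads between the species were not tested for them. DNA replication genes, active earlier in the cell cycle, had a median of -0.08, which ran from -0.13 without alpelisib 4 to 0.03 without alpelisib 1, with 0 of 27 at an unadjusted p under 0.05. Pcna, the clamp of DNA polymerase, gave 0.49 (SE 0.23) and the helicase subunit Mcm5 -0.65 (SE 0.33).

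Fibroblast and matrix genes were mixed. The fibroblast list had 14 of 22 members above 0 (against 51.4% of all genes) and a median of 0.37, which ran from 0.16 without alpelisib 4 to 0.46 without alpelisib 3 and was 0.25 by edgeR. With an unadjusted p under 0.05 there were 3 higher (against 2.77%), namely Cilp, the microfibril gene Mfap5 (0.69, SE 0.28) and the proteoglycan decorin, Dcn (0.74, SE 0.34). Dcn stood at 2200, 1640, 5437 and 1879 with alpelisib against 2805, 4394, 4979 and 4630 with the combination, and alpelisib 3 exceeded all others. That count was 1 without alpelisib 1 or alpelisib 2, 9 without alpelisib 3 and 1 by edgeR. Collagens had a median of -0.11, which ran from -0.26 without combination 4 to 0.01 without combination 3, with 15 of 20 below 0 (against 48.5% of all genes) and 0 at an unadjusted p under 0.05. The myofibroblast and TGF-beta list had 14 of 21 members above 0 (against 51.4% of all genes) and a median of 0.036, which ran from -0.031 without alpelisib 4 to 0.23 without alpelisib 3. It held 1 member with separated groups on the higher side (against 1.37% of all genes) and 1 on the lower (against 1.49%). The latent TGF-beta binding protein Ltbp2 stood at 475, 336, 548 and 683 against 789.7, 922, 783 and 886, 0.77 (SE 0.27). Acta2, the smooth muscle actin that also marks myofibroblasts, named after its values were seen, lay lower in every combination library, at 8312, 7821, 8784 and 7138 against 6408, 5860, 5611 and 6519, -0.39 (SE 0.24). Among matrix proteases (median -0.0018, from -0.097 without combination 2 to 0.068 without combination 1), Mmp14, a membrane-bound collagenase, stood at 10466, 9144, 7924 and 9809 against 7153, 6825, 4195 and 7420, -0.57 (SE 0.26), and Adamts4, an aggrecanase, at 153, 138, 153 and 131 against 76.2, 88.8, 68.8 and 110.5, -0.75 (SE 0.25), both separated. On the lower side 2 of the 26 members were separated, against 1.49% of all genes.

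The BMP and Id list held differences of both signs, 1 higher (against 2.77% of all genes) and 3 lower (against 2.99%) at an unadjusted p under 0.05. Its median of -0.22 ran from -0.46 without alpelisib 4 to -0.099 without combination 2. While Id2 gave 1.20, its relatives Id1 and Id3 gave -0.64 (SE 0.26) and -0.62 (SE 0.26), Id3 being named after its values were seen. The ligand gene Bmp4 stood at 130.3, 76.9, 173 and 155 with alpelisib against 169, 54.2, 25.2 and 22.3 with the combination, -1.40 (SE 0.46), and combination 1 stood apart from the other 3 combination libraries.

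Among immune lists, that of NK and T cells had the highest median. Athymic mice keep NK cells but hold few T cells. Of 24 genes 21 had a difference above 0 (against 51.4% of all genes), 10 with an unadjusted p under 0.05 (against 2.77%), and the median was 1.35. The list score was -0.12, -0.41, -0.06 and 0.60 with alpelisib and 0.76, 2.16, 1.91 and 0.17 with the combination, so combination 2 and 3 were high and combination 4 lay below alpelisib 4. Cd3e encodes a CD3 subunit of the T cell receptor complex. Its reads numbered 0, 2, 0 and 0 in alpelisib 1 to 4. In combination 1 to 4 they numbered 8, 107, 33 and 8. The fitted difference of Cd3e, 3.95, depends on the pseudocount. Cd2, an adhesion receptor of T and NK cells, stood at 8.5, 1.04, 2.6 and 17.2 against 11.8, 92.1, 49.3 and 25.3, 2.57 (SE 0.86). Nkg7, a cytotoxic granule gene named after its values were seen, stood at 5.67, 5.2, 29.5 and 23.5 against 19.2, 148, 83.7 and 22.3, 1.90 (SE 0.80). Gzmc, a granzyme, had the other sign, at 212, 277, 149 and 374 against 171, 143, 64.2 and 107, -1.06 (SE 0.30). Without combination 3 only 3 members had an unadjusted p under 0.05 and a difference above 0, and the whole list took 0.0101 to 0.0415% of mouse reads in the combination group and 0.0108 to 0.0179% with alpelisib.

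CC chemokines, which draw monocytes and lymphocytes, had 12 of 16 members above 0 (against 51.4% of all genes), 5 at an unadjusted p under 0.05 (against 2.77%) and a median of 0.72. Ccl8 stood at 2913, 2554, 3540 and 1521 with alpelisib against 3222, 16144, 12681 and 2221 with the combination, 1.30 (SE 0.50), and Ccl6 at 1250, 2227, 4567 and 1048 against 1845, 7659, 10449 and 3686, 1.34 (SE 0.57). Again combination 2 and 3 were high and the other 2 overlapped with alpelisib. Without combination 3 the count of such members was 0 and the median 0.40, and by edgeR on all libraries it was 8. For CXC chemokines and cytokines (median 0.49, 19 of 23 above 0, against 51.4% of all genes) the median ran from 0.28 without combination 3 to 0.58 without alpelisib 3. There the stromal chemokine Cxcl12 gave 0.73 (SE 0.25) and the macrophage growth factor Csf1 0.61 (SE 0.23). Interferon response genes had a median of 0.19, which was -0.068 without combination 3, whose score of 1.18 compared with at most 0.21 in the other 7 libraries.

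Cxcl13, the chemokine that attracts B cells, stood at 25.5, 13.5, 53.7 and 49.3 with alpelisib against 45.8, 463, 147 and 238 with the combination, 2.38 (SE 0.52, adjusted p = 0.296). Combination 1 overlapped with alpelisib 3 and 4. Without combination 1 the difference was 2.99 and passed the threshold by limma (adjusted p = 0.0206), and without both muscle-rich libraries it did so as well (2.99, adjusted p = 0.03). It was the only gene to pass in a limma fit of the settings tried. Macrophage genes had a median of 0.17 (from 0.099 without combination 3 to 0.31 without combination 4), in which the fractalkine receptor Cx3cr1 stood at 2512, 1603, 1610 and 2607 against 1582, 1175, 1163 and 1433, -0.61 (SE 0.23), with separated groups. The dendritic cell and MHC class II list had 18 of 21 members above 0 (against 51.4% of all genes) and a median of 0.42, which ran from 0.24 without combination 2 to 0.71 without combination 4. H2-Aa stood at 1600, 2379, 3222 and 2485 against 3860, 9527, 4314 and 1294, 0.69 (SE 0.43), highest in combination 2 and lowest in combination 4, and the difference was 0.24 without combination 2. The mast cell list had a median of 0.46 that changed sign, at -0.14 without alpelisib 2 and -0.0065 among genes of value 10 or more, and by edgeR it was 0.13. The neutrophil median of 0.04 ran from -0.18 without combination 3 to 0.43 without combination 4. The B cell median of 0.55 ran from 0.43 without combination 2 to 0.81 without alpelisib 1 and was 1.27 by edgeR.

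Readouts of the inhibited pathways were measured in the host as well. FOXO targets and PI3K feedback genes, which PI3K activity holds down, had 18 of 22 members above 0 (against 51.4% of all genes) and a median of 0.31, which ran from 0.18 without alpelisib 4 to 0.39 without combination 2. At an unadjusted p under 0.05 only 1 was higher (against 2.77%) and 1 lower (against 2.99%). With tissue scores as covariates 15 were above 0, the median was 0.19 and 0 were higher at such a p. The repressor Bcl6 stood at 151, 151, 138 and 127 with alpelisib against 218, 157, 194 and 234 with the combination, 0.49 (SE 0.19), with separated groups, and Foxo1 itself gave -0.42 (SE 0.24). ERK feedback genes had a median of 0.0079, which ran from -0.079 without alpelisib 1 to 0.067 without alpelisib 2, with 2 of 18 lower at an unadjusted p under 0.05 (against 2.99%), the inhibitors Spred3 (-0.96, SE 0.38) and Spry4 (-1.41, SE 0.60). Immediate early genes had a median of 0.16 (from 0.015 without alpelisib 4 to 0.24 without alpelisib 1) with Ier5 at -0.53 (SE 0.19). Clock genes had a median of 0.19 (from 0.089 without combination 2 to 0.25 without combination 1) with Per2 at 1.04 (SE 0.39), which was 0.59 without alpelisib 3. PDGF and FGF receptors and ligands had a median of -0.21, but 0.027 without alpelisib 4, 0.033 with tissue scores as covariates and -0.021 by edgeR. The ligand gene Fgf18 stood at 1.58 (SE 0.63), and at 0.96 without alpelisib 2.

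Lists of neighbouring tissue had large medians that moved widely when single libraries were left out. The skeletal muscle median of 1.19 was -0.28 without combination 1, and the fast myosin gene Myh4 stood at 37.8, 606, 0 and 3.92 with alpelisib against 6532, 3.26, 311 and 50.7 with the combination. The adipocyte median of -1.69 was -0.66 without alpelisib 4 and -2.79 without alpelisib 3, and the adipocyte hormone gene Adipoq stood at 92.6, 778, 8.67 and 1440 against 127, 379, 10.3 and 1.01. The skin and hair median of -1.01 was 0.20 without alpelisib 1, where the keratin Krt15 stood at 203 against at most 20.8 in the other 7 libraries. The nerve median of -0.14 ran from -0.22 without combination 1 to 0.19 without combination 4 and was 0.12 by edgeR, and the red cell median of 0.30 ran from -0.07 without combination 4 to 0.60 without combination 3.

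The epithelial genes S100a14 and Rab25, both called by DESeq2 and named after their values were seen, were highest in the skin-rich alpelisib 1. S100a14 stood at 247, 19.8, 11.3 and 41.5 with alpelisib against 3.7, 1.96, 11.5 and 4.05 with the combination, -2.90 (SE 0.80). Rab25, a regulator of vesicle recycling in epithelia, stood at 63.3, 39.5, 4.33 and 47.8 against 2.22, 3.26, 4.59 and 1.01, -3.02 (SE 0.83), and the epithelial cadherin Cdh1 at 162, 161, 32.1 and 223 against 31.8, 40.5, 55.0 and 34.5, -1.54 (SE 0.45). In alpelisib 2 and alpelisib 4, too, Rab25 and Cdh1 lay above every combination library. Skin and hair genes took 0.0449% and 0.0464% of mouse reads in these 2 libraries, and adipocyte genes 0.266% and 0.553%. Adipocyte genes took 0.0159% in alpelisib 3, the lowest of its group for both genes, and 0.139% in combination 2. The contribution of either tissue was not tested beyond the fits that follow. Without alpelisib 1, S100a14, Rab25 and Cdh1 gave -2.02, -2.64 and -1.39. With muscle, adipocyte and skin scores as covariates they gave -2.03, -1.65 and -0.96. Further DESeq2 calls, named on the same footing, were the transcription factor Wt1 (5.67, 8.32, 6.93 and 12.5 against 38.5, 47.7, 36.7 and 26.4, 2.05, SE 0.46), the sulfotransferase Chst1 (252, 739, 457 and 519 against 245, 191, 159 and 89.2, -1.51, SE 0.36) and the heparin-binding growth factor Ptn (54.8, 111, 37.3 and 179 against 31.1, 13.7, 10.3 and 42.6, -1.88, SE 0.50). Rplp1, a ribosomal stalk protein gene with near-identical copies, gave -1.05 (SE 0.30) and followed its human counterpart with r of 0.81.

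The same drug was added to vehicle in the other arm, which shares no library with this comparison. There, too, 0 genes passed (limma, smallest adjusted p = 0.0546, 1051 unadjusted or 6.01%). Across 17484 genes the 2 sets of differences had a Pearson r of 0.22, with genes that are not independent of each other. Of the 1007 genes with an unadjusted p under 0.05 here, 753 had the same sign there. The share of the same sign over all genes was not counted. The pan-endothelial median was -0.68 there and -0.53 here, with 28 of 32 genes below 0 in both, a share likewise not counted over all genes. There 29 of its genes were below 0 (47.9% of all genes were) and 14 lower at an unadjusted p under 0.05 (2.97% of all). Hypoxia stood at 0.52 and 0.62, with 28 of 30 genes above 0 there (52% of all) and 5 higher at an unadjusted p under 0.05 (3.04% of all). Tip cell genes stood at -0.57 and -0.49, NK and T cell genes at 0.73 and 1.35, and mitosis at -0.21 and -0.62. The NK and T cell score was 1.59 in nintedanib 4, a muscle-rich library. In nintedanib 1 to 3 it was -0.24 to -0.0091, within the vehicle range of -0.64 to 0.16. Of the 24 NK and T cell genes, 3 were higher there at an unadjusted p under 0.05 (3.04% of all) and 1 lower (2.97% of all). With separated groups there were 341 genes higher (1.95%), Id2 and Cilp among them, and 305 lower (1.74%), Notch4 among them. Notch4, Id2 and Cilp stood at -1.16, 1.13 and 1.38 when nintedanib was added to vehicle, against -1.41, 1.20 and 1.37 when it was added to alpelisib. Of the other genes taken by smallest p, Trp53i11 stood at -1.28 on vehicle with overlapping groups, B3gnt8 at -0.19 and Enho at -0.11. Afmid (-0.08) and Eno2 (-0.003) had the other sign there, as had S100a10, Mrpl9 and Dnm3os. The rest of these genes kept their sign.

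A test of the difference between the 2 arms gave 0 genes at an adjusted p under 0.05 (limma, smallest adjusted p = 0.9998, 545 unadjusted or 3.12%; edgeR, limma-voom and DESeq2 also gave 0). Among the 20 genes taken by smallest p, the difference between arms had its 3 smallest p in Dnm3os, at 1.74 on alpelisib and -0.99 on vehicle (difference 2.74, unadjusted p = 0.000271), Mrpl9, at 0.86 and -0.38 (unadjusted p = 0.00108), and S100a10, at 0.80 and -0.08 (unadjusted p = 0.00397). These 20 genes were chosen by their difference on alpelisib, which enters this test, so their p-values here are biased towards small values. Flt1 stood at 0.23 and -0.65 (unadjusted p = 0.0357). The neutrophil list had a median of 0.04 on alpelisib and 0.85 on vehicle, and 8 of its 25 genes had an unadjusted p under 0.05 for the difference (against 3.12%). Its members S100a8 and S100a9, abundant calcium-binding proteins of neutrophils named after their values were seen, gave 0.37 and 0.41 on alpelisib and 1.84 and 1.46 on vehicle. None of these differences between arms passed adjustment.

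**Figure D5:**
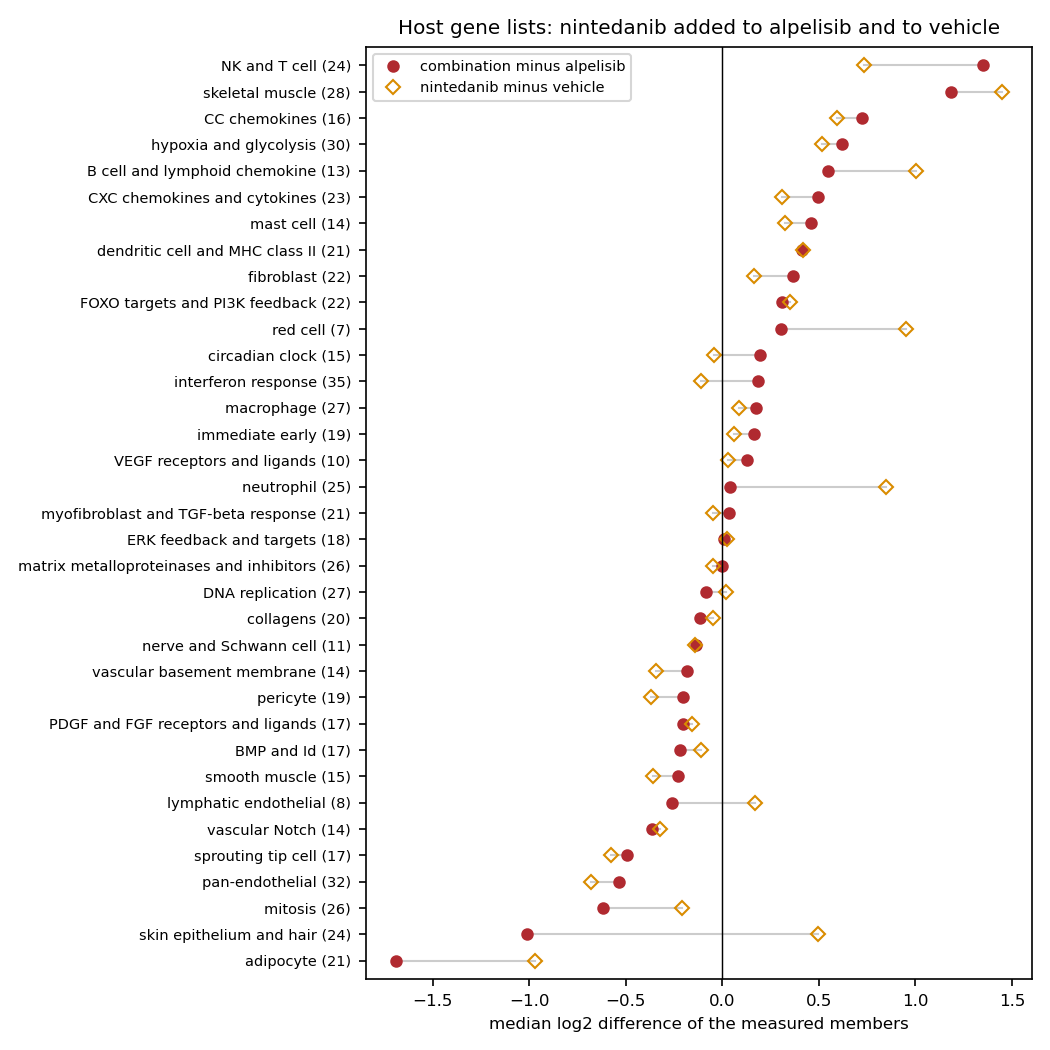
Median log2 difference of the measured members (horizontal axis) of 35 host gene lists, with the number of genes in brackets, for combination minus alpelisib (filled) and nintedanib minus vehicle (open). Pan-endothelial and tip cell lists lie below 0 and hypoxia above 0 in both, while the neutrophil list lies at 0.04 and 0.85 and the muscle, adipocyte and skin lists move widely with single libraries.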

How the data were processed

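Host expression was taken from the mouse table of 16 xenograft libraries made with the QuantSeq 3′ mRNA-Seq kit and sequenced on a NextSeq500, per the labels' protocols. TopHat and the builds mm10 and hg19 are named per the submitters' processing notes. Counting tool, annotation and scaling: not given in the sources used here. The authors deposited a normalized signal per gene and library. In each library 100% of values were whole multiples of 1 step (within 0.01 read), so whole reads were recovered and used for edgeR 4.0.16, DESeq2 1.42.0 and limma-voom. Genes whose value reached 1 in 4 or more libraries were analysed as log2(value + 1), with 1 mean for each of the 4 groups, in limma 3.58.1 (eBayes with trend) under R 4.3.3. Benjamini-Hochberg adjustment ran over 17484 genes, with a threshold of 0.05. The fit was tested on simulated data.

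The comparison and the 35 gene lists were chosen with earlier results of these data known. Genes were named by rule: the 10 smallest p in each direction among genes at or above median expression whose groups did not overlap, in each list the 3 members of smallest p (or fewer) with a mean of 5 or more, and the drug targets. Not every gene that the rule admits is reported here. Others are marked as named after their values were seen. Lists are described by counts and medians, with no test. Alternatives were quantile normalization, scaling to the summed reads of both species, no trend, other filters (none, or at least 10), a pseudocount of 0.1, a replicate block, leaving out genes that follow the human gene (r of at least 0.8), only the 8 libraries, the 3 count models, leaving out the 2 muscle-rich libraries, tissue scores as covariates, and leaving out each library. Read counts have no molecular identifiers, so depth covers counting error only. Genes are given by the symbols of the table, with no coordinates or sequences.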

Additional observations from a re-analysis of the deposited data

Results flagged for a closer look

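Within a group of 4 libraries, a value was singled out where its gap to the nearest other, divided by the range of the group, passed Dixon's limit (for genes on the log2(value + 1) scale). This happened in 13 of 280 groups checked, and chance alone gives about 1 in 20. In the alpelisib group, alpelisib 3 was low for the noncoding RNA Dnm3os (25.1, the others 125 to 136) and for the cadherin Cdh1 (32.1, the others 161 to 223). Alpelisib 2 was low for the VEGF receptor Kdr (308, the others 404 to 420) and for Fgf18 (1.04, the others 10.4 to 11), and high for the mitotic kinase Plk1 (270.3, the others 136 to 149). It was also the only alpelisib library with reads of Cd3e, 2 in number, at a value of 2.08. With the others at 0, any read in a single library passes the limit.

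In the combination group, combination 3 was low for the proteoglycan Sdc1 (419, the others 475 to 486) and for the collagenase Mmp14 (4195, the others 6825 to 7420). Combination 1 was high for Cdh5, at 399 with the others at 300 to 312. Of the list scores, smooth muscle was high in combination 1 (1.12, the others -0.71 to -0.42), the library that also carried skeletal muscle transcripts. The myofibroblast score was low in combination 2 (-0.15, the others 0.27 to 0.35) and the red cell score in combination 3 (-0.55, the others 0.32 to 0.45). The skin and hair score was high in alpelisib 1, at 3.78 with the others at -1.38 to -1.16.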

How the results depend on the processing

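With limma on the 16 libraries 0 genes passed, and DESeq2 gave 26. Leaving out the 2 muscle-rich libraries gave 1, leaving out each library in turn gave 0 to 1 (1 without combination 1), and the gene was Cxcl13 in both cases. The other alternatives run gave 0. The number at an unadjusted p under 0.05 ran from 744 without combination 3 to 1285 without the 2 muscle-rich libraries, and with single libraries left out up to 1255 without combination 2. The replicate block gave 0 genes (996 unadjusted), and same-numbered libraries did not deviate together (correlations of 0.174, -0.437, 0.046 and 0.0301), so the numbers do not show a pairing. The test between the 2 arms gave 0 genes in every alternative run. The difference in the share of mouse reads was -0.0534 points from the sum of deposited values, and -0.364 without alpelisib 1 to 3.70 in the leave-one-out series. Some small differences changed sign, and the cause was not tested. Scaled to the summed reads of both species, Fgfr1 stood at 0.0297, Pik3ca at 0.0143 and Vegfb at 0.00886. Pik3ca was 0.0174 by edgeR and 0.0163 by DESeq2, and Fgfr1 was 0.119 without the 2 muscle-rich libraries. With each library left out in turn, Fgfr1 ran from -0.183 to 0.119, Pik3ca from -0.323 to 0.142, Vegfb from -0.289 to 0.144 and Nrp1 from -0.0873 to 0.257, the extremes coming from leaving out single combination libraries. Some other differences kept their sign but moved by over 1.5 times with 1 library left out, among them Heyl (-0.24 without combination 3), Fgfr2 (-0.30 without combination 3), Fgfr3 (-0.50 without combination 4), Figf (0.065 without combination 2) and S100a8 (0.084 without alpelisib 2). Depth limits genes with few reads, such as those of T cells, in which single reads set the value in alpelisib libraries.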
